A study of Mus musculus with 8 samples.

Results

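Tal1, Lyl1, Lmo2, Ldb1, Gata2 and Cbfa2t3 encode the core of a transcription factor complex of early blood development, and their RNA levels were followed through 8 RNA-seq libraries of mouse haemogenic endothelium. The 6 genes were taken by symbol from a table of 41128 genes, and all 6 were among the 14179 genes with enough reads to be tested. The cells had been differentiated from embryonic stem (ES) cells of strain C57BL/6. A line carried lox sites at both copies of Hdac2 (Hdac2 lox/lox) and another at both copies of Hdac1 (Hdac1 lox/lox), the genes of the histone deacetylases HDAC2 and HDAC1. Each line was treated with 4-hydroxytamoxifen (4OHT), a drug commonly used to activate a tamoxifen-dependent Cre, or with the solvent ethanol (EtOH), giving 4 groups of 2 libraries. The labels do not say what drives Cre or whether a line is a single clone. No cells lacking lox sites but given 4OHT were analysed here, so an action of 4OHT itself and a loss of the floxed gene cannot be told apart.

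Haemogenic endothelium is the endothelium that gives rise to the earliest blood cells. TAL1 and its close relative LYL1 are basic helix-loop-helix proteins that pair with E proteins and bind the DNA word CANNTG, the E-box. The zinc finger protein GATA2 binds GATA words nearby, LMO2 bridges the factors without touching DNA, and LDB1 holds LMO2 and can pair with itself, which is known to bring distant sites together. CBFA2T3, also called ETO2, is the corepressor of the complex and is known to carry histone deacetylases to its sites. In mice, loss of Tal1 or Lmo2 is known to abolish blood formation, and loss of Gata2 to deplete early blood progenitors.

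Total counts per library ran between 10215792 and 19552380, and the members' own counts between 467 and 7803. Levels are CPM, counts scaled to library size by the trimmed mean of M values (TMM), and a gene was called changed at an adjusted p under 0.05 in the quasi-likelihood test of edgeR, with p-values adjusted by Benjamini-Hochberg over all genes tested. No label says that replicates were separate cultures, so p-values measure the spread between these libraries, which may be technical. The haemogenic endothelial markers Cdh5, Kdr, Tek, Kit, Runx1 and Gfi1 were read in all 8 libraries, with Gfi1 the lowest of them at 9.77 to 36.0 CPM. Summed pluripotency markers stayed at or below 3.05 CPM. Hdac2 RNA averaged 149 ± 0.273 CPM in the Hdac2 lox/lox 4OHT libraries and 158 ± 10.1 CPM in the EtOH libraries of that line (SD, n = 2 each). Hdac1 RNA averaged 7.05 ± 0.0922 CPM in the Hdac1 lox/lox 4OHT libraries and 5.69 ± 0.129 CPM in the EtOH libraries of that line (SD, n = 2 each). Gene-level counts therefore do not check the labels. Hdac1 lay between 4.00 and 7.45 CPM in all 8 libraries, and whether so low a count covers all Hdac1 RNA was not tested. A single library stood apart: Hdac2 lox/lox EtOH replicate 2 held the Y-linked Eif2s3y at 5.63 CPM and Ddx3y at 4.58 CPM, where the other libraries of that line had at most 0.324 and 0.889 CPM and the Hdac1 lox/lox libraries 24.4 to 27.9 and 25.8 to 45.7 CPM. Whether it holds RNA of another sample was not tested, so the means of Hdac2 lox/lox EtOH and the comparisons that use them carry that doubt. Leaving out any library of the line, not this one alone, lowered the number of genes called in each comparison using that line. Such a drop therefore does not single out this library.

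Promoter windows of the members are shown because the complex is known to bind its own genes through E-boxes and GATA words. They are RefSeq sequences on GRCm38.p6, from 250 bases before to 50 bases after a start site, read 5′ to 3′ on the gene's strand. Capitals mark E-boxes and GATA words, which are GATA with A or T before it and A or G after it, searched on both strands. Of the 6 genes, 5 had an entry, with 10 start sites in all. Shown are 6 of these windows, at least 1 for each gene with an entry, chosen after their matches were seen. The 4 not shown (Tal1 site 2, Ldb1 sites 1 and 2 and Cbfa2t3 site 2) held 0 GATA words, and Cbfa2t3 site 2 alone of them held an E-box.
Tal1 site 1 (chr4:115056176-115056475, plus strand): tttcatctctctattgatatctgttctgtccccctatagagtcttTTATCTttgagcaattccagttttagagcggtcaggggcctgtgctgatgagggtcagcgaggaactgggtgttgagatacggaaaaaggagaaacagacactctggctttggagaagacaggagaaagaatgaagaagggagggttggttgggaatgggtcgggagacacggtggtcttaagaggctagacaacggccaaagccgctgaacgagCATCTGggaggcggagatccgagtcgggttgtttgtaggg
Lyl1 (chr8:84701207-84701506, plus strand): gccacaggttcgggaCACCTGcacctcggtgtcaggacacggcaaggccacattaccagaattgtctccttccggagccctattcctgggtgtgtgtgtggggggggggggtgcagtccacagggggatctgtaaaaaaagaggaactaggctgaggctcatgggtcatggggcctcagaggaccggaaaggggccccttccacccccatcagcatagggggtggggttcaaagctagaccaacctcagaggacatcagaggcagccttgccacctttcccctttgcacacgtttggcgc
Ldb1 site 3 (chr19:46037021-46037320, minus strand): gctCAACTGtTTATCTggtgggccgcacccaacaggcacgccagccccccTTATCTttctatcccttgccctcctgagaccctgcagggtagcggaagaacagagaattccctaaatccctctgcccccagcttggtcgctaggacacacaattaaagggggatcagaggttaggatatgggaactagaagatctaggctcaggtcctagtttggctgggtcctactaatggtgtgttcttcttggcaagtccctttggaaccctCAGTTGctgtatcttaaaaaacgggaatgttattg
Gata2 site 1 (chr6:88193641-88193940, plus strand): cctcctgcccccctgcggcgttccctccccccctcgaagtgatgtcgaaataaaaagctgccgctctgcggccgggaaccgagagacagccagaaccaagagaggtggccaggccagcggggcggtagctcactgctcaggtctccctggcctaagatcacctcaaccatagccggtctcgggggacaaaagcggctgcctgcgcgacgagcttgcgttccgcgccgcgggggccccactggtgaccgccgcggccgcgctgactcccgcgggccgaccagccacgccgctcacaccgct
Gata2 site 2 (chr6:88198414-88198713, plus strand): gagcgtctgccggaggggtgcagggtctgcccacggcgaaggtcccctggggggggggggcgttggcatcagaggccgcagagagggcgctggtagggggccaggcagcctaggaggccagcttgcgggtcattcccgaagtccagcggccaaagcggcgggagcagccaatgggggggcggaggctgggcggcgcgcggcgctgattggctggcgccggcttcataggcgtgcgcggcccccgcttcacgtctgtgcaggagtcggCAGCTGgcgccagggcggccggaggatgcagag
Cbfa2t3 site 1 (chr8:122699060-122699359, minus strand): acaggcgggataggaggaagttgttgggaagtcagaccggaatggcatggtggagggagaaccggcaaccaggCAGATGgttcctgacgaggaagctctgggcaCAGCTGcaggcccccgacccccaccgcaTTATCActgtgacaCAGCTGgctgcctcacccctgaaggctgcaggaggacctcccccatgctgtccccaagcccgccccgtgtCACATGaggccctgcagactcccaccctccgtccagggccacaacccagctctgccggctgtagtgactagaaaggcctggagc

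Of the 10 windows, 3 held a GATA word, 6 an E-box and 3 both, and no GATA word overlapped an E-box. Over all 32851 mouse windows of this length the shares were 29.8% for a GATA word, 72.3% for an E-box and 22.9% for both. Tal1 site 1 had the GATA word TTATCT 205 bases before the start and the E-box CATCTG 10 bases after it. Cbfa2t3 site 1 held 4 E-boxes, at 177, 146, 104 and 34 bases before the start, and the GATA word TTATCA at 118 bases before it. Ldb1 site 3 had TTATCT at 240 and 200 bases before the start, whereas the first Gata2 window held neither word. These matches describe letters only, and binding was not measured.

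**Figure D1:**
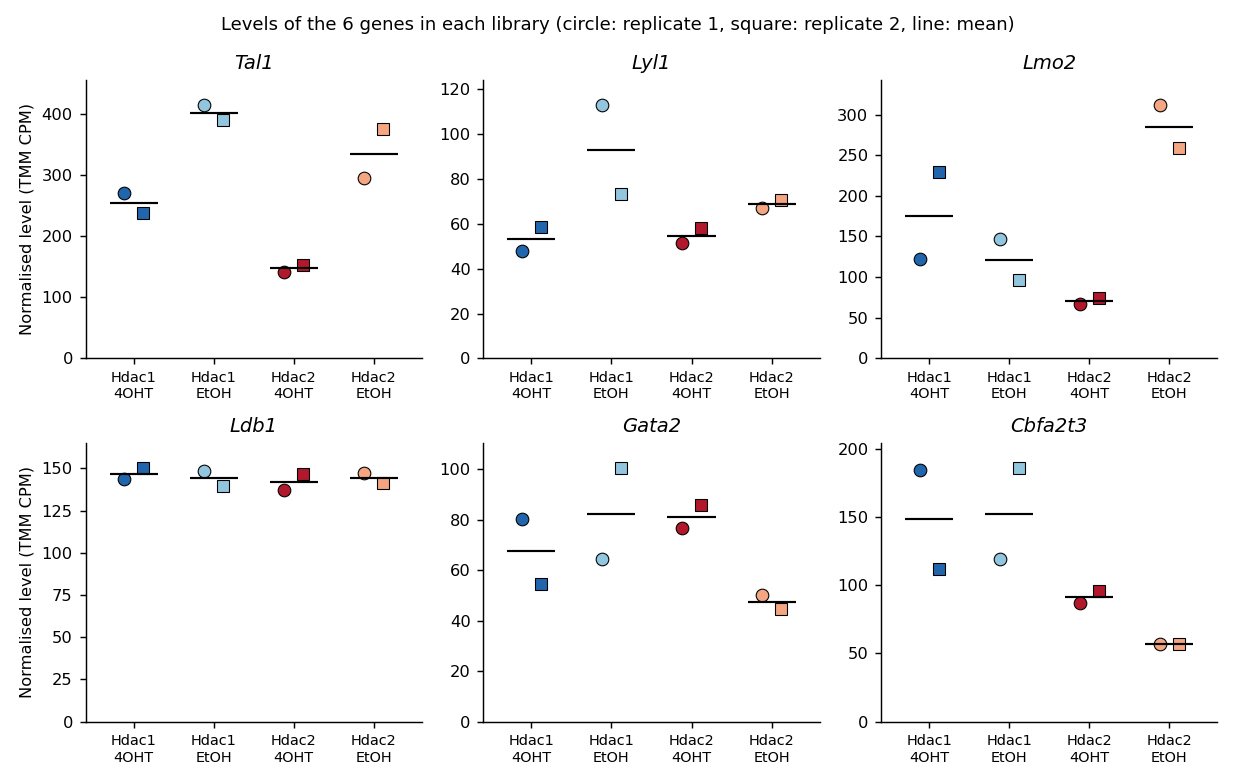
Level of each gene in CPM (y axis, from 0, scaled per panel) in the 8 libraries, in the groups Hdac1 4OHT, Hdac1 EtOH, Hdac2 4OHT and Hdac2 EtOH; points are libraries and bars are means of 2. Lmo2 lay at 66.7 and 74.6 CPM in the Hdac2 lox/lox 4OHT libraries, against 312 and 258 CPM in the EtOH libraries of that line, while Ldb1 lay between 137 and 149.9 CPM in all 8.

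In the Hdac2 lox/lox line, Lmo2 and Tal1 were lower with 4OHT than with EtOH and passed the test. Gata2 and Cbfa2t3 had higher values that did not pass, and the libraries overlapped for Ldb1. Lmo2 was at 0.248 times and Tal1 at 0.44 times the EtOH level. Of the 6 genes, 2 were called lower and 0 higher, where 17.2% of all genes tested were called lower and 18.9% higher. At an unadjusted p under 0.05, 2 of the 6 were lower and 2 higher, where 7030 of the 14179 genes passed in either direction. DESeq2 called 2 of the 6 lower and 1 higher, and 5572 of all genes, 3071 of them higher. For 5 of the 6, both 4OHT libraries lay outside the range of the EtOH libraries, which was also true of 78.3% of all genes tested. In the Hdac1 lox/lox line 0 of the 6 genes were called (edgeR), as was 0% of all genes, although 947 had an unadjusted p under 0.05 and DESeq2 called 32. Of the 6, 2 had an unadjusted p under 0.05, both lower, and DESeq2 called 0. There, 2 of the 6 genes had both 4OHT libraries outside the EtOH range, against 31.2% of all genes. The median log2 fold change of the 6 genes was -0.17 in each line, and that of all genes was -0.02 in each.

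Tal1, which lies at chr4:115056426-115071755 (mm10, plus strand), is the basic helix-loop-helix factor that sets up the blood programme. It read 142 and 153 CPM in the Hdac2 lox/lox 4OHT libraries, against 295 and 375 CPM in the EtOH libraries of the line. Both treated libraries therefore sat below both solvent libraries. Tal1 fell by 1.18 on the log2 scale (SE 0.18, 95% interval -1.59 to -0.78, adjusted p = 0.0087 in edgeR). The Hdac1 lox/lox line gave 272 and 238 CPM with 4OHT, against 415 and 390.3 CPM with EtOH, again with no overlap. That log2 fold change was -0.66 ± 0.17 (SE, interval -1.06 to -0.26) and did not pass (unadjusted p = 0.0054, adjusted p = 0.71). Its 4 groups did not overlap: the highest was Hdac1 lox/lox EtOH, then Hdac2 lox/lox EtOH, then Hdac1 lox/lox 4OHT, and the lowest Hdac2 lox/lox 4OHT. The 4OHT effect in the Hdac2 lox/lox line minus that in the Hdac1 lox/lox line was -0.52 ± 0.24 (SE, interval -1.09 to 0.04, adjusted p = 0.2), so a difference between the lines was not shown for Tal1.

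Lyl1 (chr8:84701457-84704715, plus strand) encodes the helix-loop-helix protein that is known to stand in for TAL1 in part in later blood cells. It had 51.2 and 58.3 CPM in the Hdac2 lox/lox 4OHT libraries, against 67.0 and 70.6 CPM with EtOH. The libraries did not overlap, but the log2 fold change of -0.33 ± 0.23 (SE, interval -0.86 to 0.20) did not pass the test (adjusted p = 0.28). Lyl1 had 47.7 and 58.7 CPM in the Hdac1 lox/lox 4OHT libraries, against 113 and 73.1 CPM with EtOH, where replicate 1 stood above every other library. The log2 fold change was -0.81 ± 0.23 (SE, interval -1.34 to -0.28, adjusted p = 0.71), and -0.46 without EtOH replicate 1 (adjusted p = 0.72). The effect in the Hdac2 lox/lox line minus that in the Hdac1 lox/lox line was 0.48 ± 0.32 (SE, interval -0.27 to 1.22, adjusted p = 0.35), with 0.13 without Hdac1 lox/lox EtOH replicate 1 and 0.76 without replicate 2.

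Lmo2 (chr2:103957986-103981878, plus strand), the LIM-only bridge, had the largest estimate of the 6 in the Hdac2 lox/lox line. Its 66.7 and 74.6 CPM in the Hdac2 lox/lox 4OHT libraries stood against 312 and 258 CPM in the EtOH libraries of the line, with no overlap. Lmo2 fell by 2.01 on the log2 scale (SE 0.33, interval -2.77 to -1.25, adjusted p = 0.0089), and 236 of the 14179 genes had a lower log2 fold change. It read 122 and 229 CPM in the Hdac1 lox/lox 4OHT libraries, against 146 and 96.6 CPM in the EtOH libraries, and the groups overlapped (log2 fold change 0.53 ± 0.32 SE, interval -0.20 to 1.26, adjusted p = 0.8). Leaving out the first 4OHT library of that line gave 0.91 and leaving out the second gave 0.0026, while the EtOH libraries left out in the same order gave 0.86 and 0.25, and none of these passed. The effect in the Hdac2 lox/lox line minus that in the Hdac1 lox/lox line was -2.54 ± 0.45 (SE, interval -3.59 to -1.49). That difference had an unadjusted p of 0.00057 and an adjusted p of 0.068 in edgeR, so it was not called. It was called by DESeq2 (adjusted p = 2.1e-05) and in edgeR with no filter on low counts (adjusted p = 0.0052). Without Hdac2 lox/lox EtOH replicate 2 it was -2.67 (adjusted p = 0.19), and of the 8 libraries left out in turn, leaving out Hdac1 lox/lox EtOH replicate 1 brought it past the threshold (-2.87, 0.011). Over all genes 0.0282% were called for this difference (4 genes, 2 of them positive), and 0 of the 6 members. Of those called, 8 of 11 were positive without scaling and 1187 of 1711 in DESeq2, where 1 member was called. An unadjusted p under 0.05 was found for 2 of the 6 members and for 3973 of the 14179 genes.

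Ldb1 (chr19:46032593-46045214, minus strand), the partner that LMO2 binds, showed the narrowest range of the 6. It had 137 and 147 CPM in the Hdac2 lox/lox 4OHT libraries, against 147 and 141 CPM with EtOH, and 144 and 149.9 CPM in the Hdac1 lox/lox 4OHT libraries, against 149 and 139 CPM with EtOH. The highest of the 8 libraries was 1.09 times the lowest, and all groups overlapped. The intervals of its log2 fold changes were -0.34 to 0.30 in the Hdac2 lox/lox line and -0.29 to 0.35 in the Hdac1 lox/lox line (adjusted p = 0.92 and 0.98), and the sign of either estimate depended on the scaling. Ldb1 shares 177 exon bases with Pprc1 on the opposite strand, which had 17897 counts over the 8 libraries to Ldb1's 17142. Pprc1 averaged 146 ± 0.963 CPM in the Hdac2 lox/lox 4OHT libraries and 107 ± 12.8 CPM in the EtOH libraries (SD, n = 2 each), and whether counting used strand is not given, so reads from the shared bases cannot be told apart.

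Gata2 (chr6:88193891-88207030, plus strand), a factor of blood progenitors and endothelium, had values in the other direction in the Hdac2 lox/lox line. It had 76.5 and 85.8 CPM in the Hdac2 lox/lox 4OHT libraries, against 50.3 and 44.6 CPM with EtOH, without overlap. Its log2 fold change of 0.77 ± 0.26 (SE, interval 0.16 to 1.38) missed the threshold in edgeR (adjusted p = 0.052). The gene passed in DESeq2 (adjusted p = 0.023), with RLE size factors (0.049), with no filter (0.02) and with the line fitted alone (0.0026). It did not pass without scaling (0.059), with the replicate number as a block (0.15) or without any one library of the line (0.13 to 0.21). The Hdac1 lox/lox line gave 80.3 and 54.6 CPM with 4OHT, against 64.6 and 100.3 CPM with EtOH, and these groups overlapped (log2 fold change -0.29 ± 0.26 SE, adjusted p = 0.88). The difference between the lines was 1.06 ± 0.37 (SE, interval 0.21 to 1.92, adjusted p = 0.13).

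Cbfa2t3 (chr8:122628739-122699109, minus strand), the corepressor, had 87.1 and 95.7 CPM in the Hdac2 lox/lox 4OHT libraries, against 57.2 and 57.0 CPM with EtOH. The groups did not overlap, and the log2 fold change of 0.68 ± 0.28 (SE, interval 0.02 to 1.33) did not pass (adjusted p = 0.093), though it did with the line fitted alone (0.0029). Its levels in the Hdac1 lox/lox line were 185 and 112 CPM with 4OHT, against 119 and 186 CPM with EtOH, so the spread inside each group exceeded the difference between their means (log2 fold change -0.04 ± 0.28 SE, adjusted p = 0.99). The difference between the lines was 0.72 ± 0.40 (SE, adjusted p = 0.26). The transcript Gm15899 lies inside Cbfa2t3 on the same strand with no shared exon, and held 1606 counts over the 8 libraries to 13894 for Cbfa2t3.

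**Figure D2:**
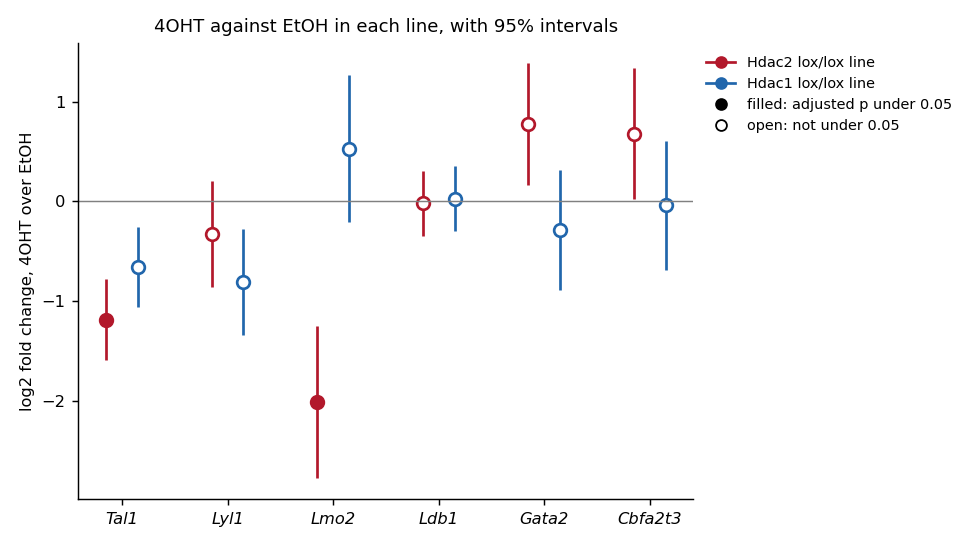
Log2 fold change of 4OHT over EtOH (y axis) for each gene in the Hdac2 lox/lox line (left of each pair) and the Hdac1 lox/lox line, with 95% intervals from edgeR; filled points passed at an adjusted p under 0.05. Tal1 at -1.18 and Lmo2 at -2.01 in the Hdac2 lox/lox line are the only filled points, and the Ldb1 intervals straddle 0 in both lines.

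The calls in the Hdac2 lox/lox line depended on having both libraries of each group. With EtOH replicate 2 left out, the library with Y-linked reads, Tal1 had a log2 fold change of -0.997 and Lmo2 of -2.14 (adjusted p = 0.075 for each), Gata2 had 0.69 (0.21) and Cbfa2t3 0.68 (0.25). Fewer genes were then called over the whole table, as was so without any other library of the line. Without EtOH replicate 1, Tal1 had a log2 fold change of -1.35 and was called only at the very edge of the threshold. Lmo2 then had -1.87 and was not called. Without 4OHT replicate 1 or replicate 2, 0 of the 6 genes were called, with Lmo2 at -1.93 (adjusted p = 0.056) and -2.09 (0.072) and Tal1 at -1.13 (0.051) and -1.23 (0.067).

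Some cell type markers moved with these values. Over all genes tested in the Hdac2 lox/lox line, 18.9% were called higher and 17.2% lower. In the Hdac2 lox/lox line 7 of 10 erythroid markers were called lower and 0 higher, and their summed level was 277 to 416 CPM with 4OHT against 1968 to 1975 CPM with EtOH. Of 10 endothelial markers 7 were called higher and 0 lower, with sums of 6036 to 7926 CPM with 4OHT against 2767 to 2911 CPM with EtOH. Of 8 smooth muscle and mesenchyme markers 5 were called higher and 0 lower, with sums of 4319.8 to 6529 CPM with 4OHT against 1519 to 2176 CPM with EtOH. All markers of these 3 lists were read in every library. Megakaryocyte markers summed to 592 to 634 CPM with 4OHT against 826 to 837 CPM with EtOH, with Ppbp and Gp6 at 0 in some libraries. Of the 6 tested, 1 (Itga2b) was called lower, near the share of all genes. Each sum was mostly Itgb3, which was not called, at 526 and 575 CPM with 4OHT against 619 and 671 CPM with EtOH. Of 6 macrophage and myeloid markers tested, Ptprc, Itgam and Csf1r were called higher and Mpo lower, with sums of 42.6 to 51.5 CPM with 4OHT against 38.6 to 39.7 CPM with EtOH and Fcgr1 at 0 in some libraries. Of 6 cardiomyocyte markers tested, Actc1, Nkx2-5 and Myh7 were called higher and 0 lower (Myl4 at -2.16, adjusted p = 0.091), with sums of 33.9 to 38.0 CPM with 4OHT against 11.4 to 15.4 CPM with EtOH and Myl7, Myh6 and Tnni3 at 0 in some libraries. The part of these shifts in the levels of Tal1, Lmo2, Gata2 and Cbfa2t3 was not tested, and in bulk RNA fewer cells of a type and less RNA per cell cannot be told apart.

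In the Hdac1 lox/lox line the libraries of a group differed from each other in the same markers. Endothelial markers summed to 5782 and 4329.5 CPM with 4OHT (replicates 1 and 2), against 3551 and 5326 CPM with EtOH. Erythroid markers summed to 289 and 587 CPM with 4OHT, against 1171 and 466 CPM with EtOH. Gata2 and Cbfa2t3 were high in 4OHT replicate 1 and EtOH replicate 2, the libraries with the higher endothelial sum of their group, while Lmo2 was low in both. Tal1 did not follow this split, with both 4OHT libraries below both EtOH libraries. The part of this within-group spread in the Hdac1 lox/lox results was not tested.

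Per kilobase of exon, Lmo2 and Tal1 were the most abundant of the 6 transcripts and Cbfa2t3 and Gata2 the least. The mean over 8 libraries was 75.3 RPKM (TMM-scaled CPM per kilobase of the union of annotated exons) for Lmo2 and 65.1 RPKM for Tal1. It was 37.5 RPKM for Lyl1, 31.3 RPKM for Ldb1, 13.4 RPKM for Cbfa2t3 and 12.9 RPKM for Gata2. Cbfa2t3 and Gata2 did not differ beyond their spread over libraries, which was 6.81 to 22.2 RPKM for Cbfa2t3 and 8.26 to 18.6 RPKM for Gata2, but their order turned with the line: Gata2 was above Cbfa2t3 in all 4 Hdac2 lox/lox libraries and below it in all 4 Hdac1 lox/lox libraries. The ranges of Lmo2 (30.8 to 144 RPKM) and Tal1 (32.4 to 94.8 RPKM) overlapped too.

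**Figure D3:**
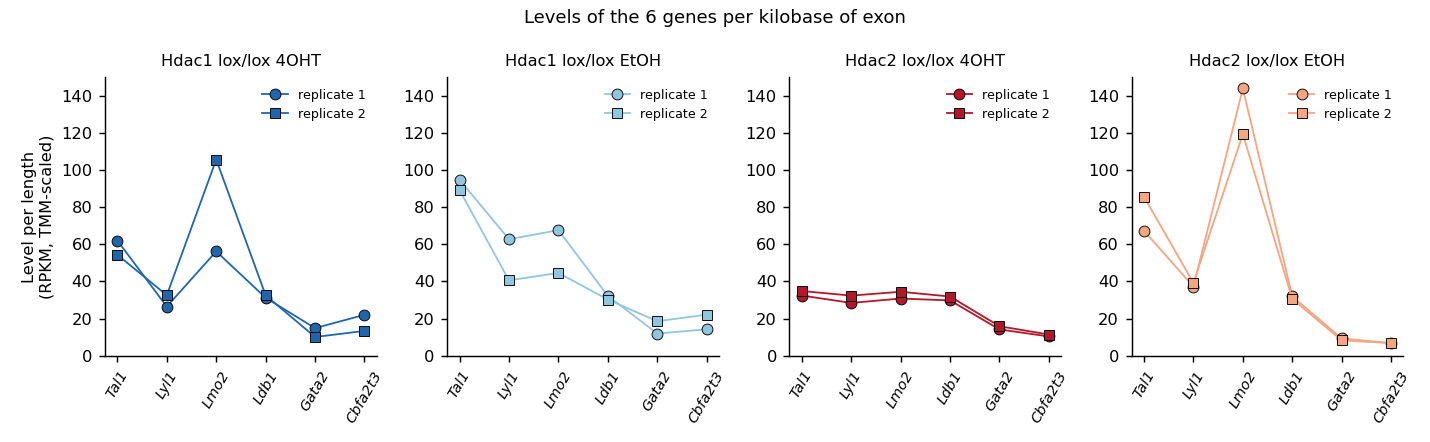
Level per length in RPKM (y axis) of the 6 genes in each of the 4 groups, with a line per library and symbols for replicates. The profile is flat over Tal1, Lyl1, Lmo2 and Ldb1 in the Hdac2 lox/lox 4OHT libraries, between 28.5 and 34.9 RPKM, and peaks at Lmo2 in the EtOH libraries of that line, at 144 and 119 RPKM.

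The proportions of the transcripts shifted with the levels. In the Hdac2 lox/lox 4OHT libraries Tal1, Lyl1, Lmo2 and Ldb1 all lay between 28.5 and 34.9 RPKM. The ratio of Lmo2 to Ldb1 on the RPKM scale was 1.03 and 1.08 in these libraries, against 4.51 and 3.89 in the EtOH libraries of the line. It was 1.80 and 3.24 in the Hdac1 lox/lox 4OHT libraries, against 2.10 and 1.47 with EtOH, which overlap. Tal1 to Ldb1 stood at 1.09 and 1.09 in the Hdac2 lox/lox 4OHT libraries, against 2.11 and 2.79 with EtOH. The same ratio was 1.99 and 1.67 in the Hdac1 lox/lox 4OHT libraries, against 2.94 and 2.94 with EtOH. It was lower with 4OHT in both lines, without overlap. Ldb1 hardly varied between libraries, so these ratios to Ldb1 largely restate the Lmo2 and Tal1 levels given above. Gata2 to Lmo2 was 0.460 and 0.461 in the Hdac2 lox/lox 4OHT libraries, against 0.0647 and 0.0692 with EtOH. That ratio in the Hdac1 lox/lox line was 0.265 and 0.0957 with 4OHT, against 0.177 and 0.416 with EtOH. These are ratios of RNA, not of protein, and they were not tested.

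The lines also differed in their EtOH libraries. They differed in Y-linked RNA too, as given above, so the floxed gene is not the only difference seen between them. Cbfa2t3 was called higher in Hdac1 lox/lox EtOH (119 and 186 CPM) than in Hdac2 lox/lox EtOH (57.2 and 57.0 CPM), by a log2 fold change of 1.42 ± 0.29 (SE, interval 0.75 to 2.08, adjusted p = 0.032). It was 1 of the 6 members called higher, where 6.42% of all genes were, 911 of the 1323 called in all, or 1242 of 1557 without scaling. With 1 library left out, the Cbfa2t3 log2 fold change kept its sign at 1.07 to 1.70. It was not called without either Hdac2 lox/lox EtOH library (1.42 for each, adjusted p = 0.22 without replicate 1 and 0.13 without replicate 2), without Hdac1 lox/lox EtOH replicate 2 (1.07, 0.089) or without either Hdac2 lox/lox 4OHT library (1.42, 0.071 for each). Lmo2 had values in the other direction, at 146 and 96.6 CPM in Hdac1 lox/lox EtOH against 312 and 258 CPM in Hdac2 lox/lox EtOH. That log2 fold change of -1.23 ± 0.32 (SE) missed the threshold in edgeR (adjusted p = 0.051) and passed in DESeq2 (0.0032). Gata2 was at 0.80 ± 0.26 (SE, adjusted p = 0.085, and 0.039 in DESeq2), Lyl1 at 0.44 ± 0.23 (SE, 0.22) and Tal1 at 0.27 ± 0.17 (SE, 0.31). Without Hdac1 lox/lox EtOH replicate 2, whose marker sums stood apart from those of replicate 1, the Lmo2 log2 fold change was -0.96 (adjusted p = 0.17) and that of Gata2 was 0.45 (0.32), and without replicate 1 both passed (-1.56, 0.02 and 1.08, 0.017). Without Hdac2 lox/lox EtOH replicate 2 neither passed (-1.35, 0.14 and 0.72, 0.26). The Hdac2 lox/lox EtOH levels of Cbfa2t3 and Gata2 lay below all levels of the Hdac1 lox/lox line.

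By group mean, Lmo2 ran in the order Hdac2 lox/lox EtOH, Hdac1 lox/lox 4OHT, Hdac1 lox/lox EtOH and Hdac2 lox/lox 4OHT, and its middle groups overlapped. Gata2 was lowest in Hdac2 lox/lox EtOH, the only group below all others, while the other 3 groups overlapped. Cbfa2t3 was highest in both Hdac1 lox/lox groups, which overlapped, and lower in Hdac2 lox/lox 4OHT and lowest in Hdac2 lox/lox EtOH. Lyl1 was lower in both 4OHT groups, which overlapped, than in either EtOH group. Over the 8 libraries the smallest root mean square differences of centred log2 CPM among the members were 0.35 for Lyl1 and Ldb1, then 0.40 each for Tal1 and Lyl1 and for Ldb1 and Gata2. Ldb1 hardly varied (SD of log2 CPM 0.046, against 0.39 for Lyl1 and 0.41 for Gata2). The small distances of Lyl1 and Gata2 from Ldb1 therefore show modest spread around a flat gene and not a shared profile. Lmo2 was farthest from Cbfa2t3, at 1.21, and from Gata2, at 1.13.

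The gene nearest to Tal1 over the 8 libraries, of 9907 candidates by the same measure, was Gpsm2 (0.12), followed by Tfap4 and Gypc (0.15 each). All of these were called lower in the Hdac2 lox/lox line (Gpsm2 log2 fold change -1.06, adjusted p = 0.01; Tfap4 -1.24, 0.012; Gypc -1.09, 0.0089). Asns, Tspan13 and Gpt2 lay nearest to Lmo2, at 0.23, 0.23 and 0.24, with log2 fold changes of -2.17, -1.51 and -1.52 in the Hdac2 lox/lox line (adjusted p = 0.0089, 0.011 and 0.014). Lyl1 was nearest to Pdcd5 (0.084), Zfp184 (0.14) and Ahsa1 (0.15), and Ldb1 to Vti1b (0.049), Foxred2 (0.050) and Tcaim (0.055). Gata2 had Esf1 (0.093), Fmr1 (0.095) and Morc2a (0.10) beside it, and Cbfa2t3 had Smg6 (0.11), Ap3m2 (0.14) and Rapgef6 (0.14). Each of the 6 had neighbours closer than any other member.

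RNA of genes whose proteins work with the complex was compared as well. Of 15 DNA-binding partners and adaptors 13 were tested, and in the Hdac2 lox/lox line 3 were called higher and 3 lower, with a median log2 fold change of 0.36 (0.23 without scaling). These shares lie near the 18.9% and 17.2% of all genes called in each direction. Gata3, a GATA factor best known from T cells, rose to 42.9 ± 6.79 CPM with 4OHT, against 10.9 ± 2.68 CPM with EtOH (log2 fold change 1.97 ± 0.23 SE, adjusted p = 0.0064). Tcf4, an E protein, rose to 320 ± 94.7 CPM with 4OHT, against 106 ± 6.14 CPM with EtOH (1.59 ± 0.37 SE, 0.018). Gata1, the GATA factor of red cells and megakaryocytes, fell to 6.39 ± 0.619 CPM, against 64.5 ± 7.63 CPM (-3.33 ± 0.70 SE, 0.015). Lmo4, a LIM-only relative of Lmo2 that also binds LDB1, fell to 32.3 ± 2.51 CPM, against 53.0 ± 1.60 CPM (-0.71 ± 0.17 SE, 0.02; SDs with n = 2 each). Of the 4 Id genes, whose proteins hold E proteins off DNA, 0 were called in edgeR and DESeq2 called 1. An unadjusted p under 0.05 was found for 2 of the 4, and for 7030 of the 14179 genes tested. Among the Id genes, Id1 was nearest to the threshold, at 161 ± 0.251 CPM with 4OHT against 110.2 ± 20.5 CPM with EtOH (0.55 ± 0.20 SE, adjusted p = 0.066). No change was called in the Hdac1 lox/lox line: 0 partners and 0 Id genes were called by edgeR or DESeq2, 1 of each had an unadjusted p under 0.05, and the medians were -0.11 and 0.36.

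Among 13 corepressors and coactivators known to act with the complex, 5 were called higher and 2 lower in the Hdac2 lox/lox line. Their median was 0.19, against -0.02 over all genes, of which 18.9% were called higher and 17.2% lower. The acetyltransferase genes Ep300 (log2 fold change 1.64 ± 0.29 SE, adjusted p = 0.011) and Kat2b (1.60 ± 0.29 SE, 0.011) rose. Corepressor genes were also among the 5 called higher. Gfi1b, a repressor that recruits LSD1, fell to 6.77 ± 0.406 CPM with 4OHT, against 44.0 ± 3.55 CPM with EtOH (-2.70 ± 0.39 SE, 0.0087; SDs with n = 2 each). By edgeR or DESeq2, 0 of the 13 were called in the Hdac1 lox/lox line, and 0 had an unadjusted p under 0.05 (median -0.10).

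Of 10 transcription factors of blood and endothelial specification, 2 were called higher and 2 lower in the Hdac2 lox/lox line (median 0.11), near the shares of all genes, and 0 in the Hdac1 lox/lox line by edgeR or DESeq2 (3 at an unadjusted p under 0.05, median -0.34). Mecom, a factor of blood stem cells and arterial endothelium, rose to 93.2 ± 29.9 CPM with 4OHT, against 6.54 ± 3.85 CPM with EtOH (log2 fold change 3.86 ± 0.67 SE, adjusted p = 0.01). Erg, an ETS factor of endothelium, rose by 0.68 ± 0.21 (SE, 0.038). Etv2, the ETS factor that precedes Tal1 in mesoderm, fell to 1.54 ± 0.790 CPM, against 10.5 ± 1.59 CPM (-2.75 ± 0.56 SE, 0.014). Myb fell to 10.3 ± 0.634 CPM, against 33.9 ± 8.95 CPM (-1.71 ± 0.32 SE, 0.012; SDs with n = 2 each).

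Of 16 blood genes known to be bound by the complex 15 were tested, and 9 fell and 0 rose in the Hdac2 lox/lox line. The median log2 fold change was -1.91, where that of all genes was -0.02 and 17.2% of all genes were called lower. All 15 estimates were below 0, although Hhex, at -0.0027, turned positive with RLE size factors and in DESeq2. Nfe2, a megakaryocyte and red cell factor, fell to 20.9 ± 0.873 CPM with 4OHT, against 169 ± 25.2 CPM with EtOH (-3.02 ± 0.48 SE, adjusted p = 0.0087). Itga2b, which encodes the early blood marker CD41, fell to 45.4 ± 4.21 CPM, against 170.0 ± 25.8 CPM (-1.91 ± 0.31 SE, 0.0089), and Epor, the erythropoietin receptor, to 4.65 ± 0.211 CPM, against 33.6 ± 5.87 CPM (-2.85 ± 0.51 SE, 0.011; SDs with n = 2 each). Gfi1b and Gata1, given above, belong to this list too. The estimate was below 0 for all 15 in the Hdac1 lox/lox line too, under each scaling, where the median was -0.77 and 0 were called by edgeR or DESeq2, with 5 at an unadjusted p under 0.05. Of the 15, 6 are also in the list of erythroid markers, and the erythroid sums given above moved in the same direction.

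Cardiac genes were examined because TAL1 is known to hold down the heart programme in haemogenic endothelium. Of 10 such genes 8 were tested, and 4 were called higher and 0 lower in the Hdac2 lox/lox line, with a median of 1.28. Of all genes tested, 18.9% were called higher there. Actc1 and Nkx2-5 are also among the cardiomyocyte markers given above, so their values are not a separate result. Hand2, a heart and mesenchyme factor, rose to 103 ± 10.4 CPM with 4OHT, against 9.39 ± 3.47 CPM with EtOH (log2 fold change 3.47 ± 0.29 SE, adjusted p = 0.0041). Nkx2-5 rose to 10.3 ± 2.22 CPM, against 1.06 ± 0.123 CPM (3.29 ± 0.78 SE, 0.019), and Gata4 to 82.3 ± 8.87 CPM, against 15.9 ± 0.208 CPM (2.37 ± 0.74 SE, 0.041). Actc1, a cardiac actin, rose to 14.1 ± 0.467 CPM, against 5.83 ± 0.278 CPM (1.27 ± 0.20 SE, 0.0087; SDs with n = 2 each). For the Hdac1 lox/lox line 0 of the 8 were called in edgeR, while 1, lower, had an unadjusted p under 0.05 and 1 was called lower by DESeq2 (median -0.02). Smooth muscle and mesenchyme markers moved in the same direction in the Hdac2 lox/lox line, and their part in these values was not tested.

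**Figure D4:**
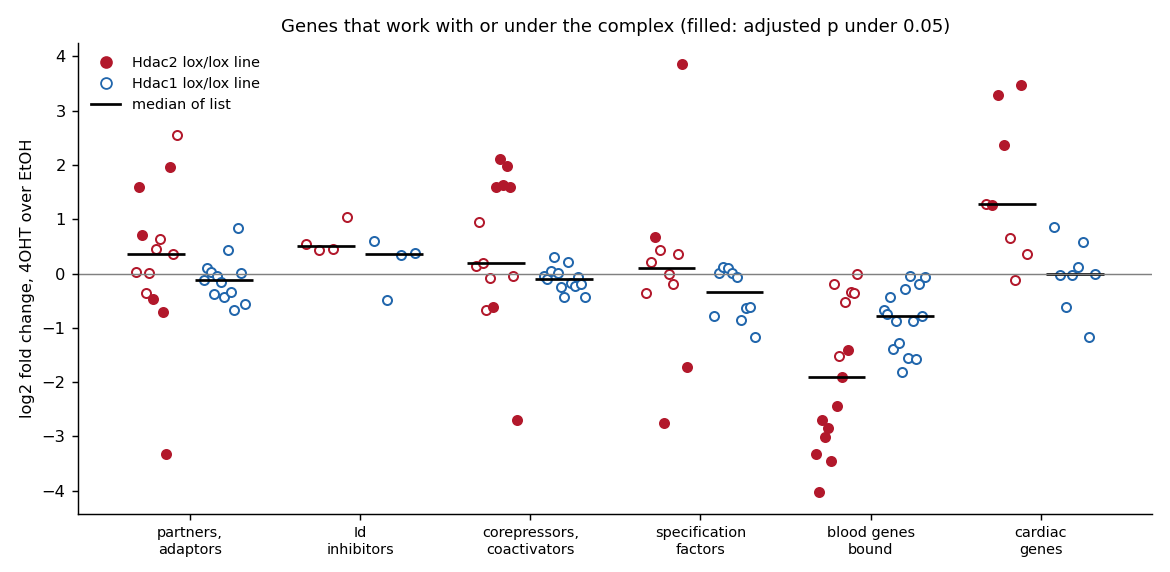
Log2 fold change of 4OHT over EtOH (y axis) for the tested genes of 6 lists, with the Hdac2 lox/lox line left of the Hdac1 lox/lox line; filled points passed at an adjusted p under 0.05 and black bars are list medians. The 15 blood genes lie below 0 in both lines (Hhex in the Hdac2 lox/lox line at -0.0027, positive with RLE size factors and in DESeq2), with medians of -1.91 and -0.77, and no point of the Hdac1 lox/lox line is filled.

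With Hdac2 lox/lox EtOH replicate 2 left out, the median log2 fold change was -2.05 for the blood genes and 1.17 for the cardiac genes. It was 0.02 for the partners and adaptors, 0.39 for the corepressors and coactivators, 0.04 for the specification factors and 0.59 for the Id genes. Calls are not compared here, since leaving out any library of that line lowered the number of genes called. The medians of the blood and cardiac genes thus differed little without that library, while that of the partners and adaptors was close to that of all genes.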

How the data were processed

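RNA of 8 samples of mouse haemogenic endothelium was sequenced by the submitters. Per the labels' protocols, 200 ng of total RNA per sample went through an Agilent SureSelect strand-specific kit with 15 amplification cycles. Whole-number counts per gene, without normalization, were deposited for 41128 genes. Per the submitters' processing notes, the build was mm10. These notes list Bowtie2 2.2.1, edgeR 3.8.5, R 3.1.0, bcl2fastq 2.17.1.14 and SAMtools 0.1.19, without their roles. The counting program, its annotation, its strand setting and its handling of multiply mapped reads were not stated there.

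Groups came from the sample titles. The members and gene lists were chosen with earlier results of these data known. Genes were filtered with filterByExpr (14179 left, with 99.9% of counts), scaled by TMM and fitted in edgeR 4.0.16 (R 4.3.3) by a robust quasi-likelihood model with a mean per group over all 8 libraries. Benjamini-Hochberg adjustment ran over all genes tested, with calls at 0.05. Contrasts set 4OHT against EtOH within each line, then the Hdac2 effect against the Hdac1 effect, then Hdac1 lox/lox EtOH against Hdac2 lox/lox EtOH. RPKM divides TMM-scaled CPM by the union of exons in GENCODE M21. Libraries of every group differed by more than sampling noise. A floor of 3 counts was 0.15 to 0.287 CPM. The fit was also run on simulated counts, with the same spread for every gene and group and with independent libraries. The measured groups differed in spread, so that run checks the code and not the calls made here.

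Genes were named by rule: the 6 members, from each list up to 4 called genes in the Hdac2 lox/lox line by smallest adjusted p (the lowest gene where none was called), and for each member the 3 genes with the smallest root mean square difference of centred log2 CPM (prior count 2, mean CPM of at least 5). One gene that the rule names is not reported here. Pprc1, Gm15899, Eif2s3y, Ddx3y and Itgb3 were named after their values were seen. Alternatives were DESeq2 1.42.0, RLE size factors, no scaling, no filter, a replicate block, the line fitted alone, and each library left out, where the lone library left in a group takes its spread from the other groups.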

Additional observations from a re-analysis of the deposited data

Results flagged for a closer look

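Hand2, a heart and mesenchyme factor from the list of genes that TAL1 is known to hold down, differed between the lines in its 4OHT effect. The effect in the Hdac2 lox/lox line minus that in the Hdac1 lox/lox line was 4.64 on the log2 scale (adjusted p = 0.019 in edgeR). The call was lost without any one of the 4 Hdac2 lox/lox libraries, among them EtOH replicate 2 with the Y-linked reads (5.06, adjusted p = 0.066), without Hdac1 lox/lox 4OHT replicate 2 (4.43, 0.08) and with the replicate number as a block (4.68, 0.31). Without Hdac2 lox/lox 4OHT replicate 1 or 2 it was 4.73 (0.072) and 4.53 (0.12), and without EtOH replicate 1 4.28 (0.082). In the Hdac2 lox/lox line Hand2 averaged 103 ± 10.4 CPM with 4OHT and 9.39 ± 3.47 CPM with EtOH (SD, n = 2 each), and both 4OHT libraries were the higher. In the Hdac1 lox/lox line it averaged 45.6 ± 9.75 CPM with 4OHT and 102 ± 5.93 CPM with EtOH (SD, n = 2 each), and both 4OHT libraries were the lower.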

How the results depend on the processing

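Of 348 log2 fold changes of the 6 members under the alternatives, 278 kept direction and side of the threshold, 15 fell short of it, 35 newly passed and 20 changed sign. Signs changed for Ldb1, Gata2 and Cbfa2t3. Ldb1 in the Hdac2 lox/lox line turned to 0.0071 in DESeq2 and 0.0073 with RLE size factors, and lay between -0.067 and 0.031 with a library left out. In the Hdac1 lox/lox line it was -0.022 without scaling and -0.024 to 0.075 with a library left out. In the EtOH comparison it was 0.0056 in DESeq2, 0.0058 with RLE size factors, 0.046 without scaling, 0.015 without the filter and -0.044 to 0.049 with a library left out, and the difference between the lines was -0.097 to 0.0011. In the Hdac1 lox/lox line Gata2 lay between -0.60 and 0.053 and Cbfa2t3 between -0.44 and 0.30.

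Counts moved more, and the cause was not tested. In the Hdac2 lox/lox line 5113 genes and 2 members were called, 4 members with the line fitted alone, and 0 to 6422 genes and 0 to 4 members with a library left out. In the Hdac1 lox/lox line DESeq2 called 32 genes, 4 passed without the filter, and leaving out a library gave 0 genes and 0 members throughout. For the difference between the lines, 4 genes were called, 1711 with 1 member in DESeq2, 11 without scaling, 1187 with 1 member without the filter, and 0 to 3740 genes with 0 to 2 members when a library was left out. In the EtOH comparison 1323 genes were called, 2771 with 3 members in DESeq2, 2064 with 3 members without the filter, and 1 to 3871 genes with 0 to 3 members when a library was left out. Without scaling the median log2 fold change of all genes in the Hdac2 lox/lox line was -0.14. All 18 nearest genes were the same with a prior count of 0.5.

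Replicate numbers were not shown to pair libraries (correlation of same-numbered deviations 0.26 in the Hdac2 lox/lox line and -0.69 in the Hdac1 lox/lox line). With the number as a replicate block, 0 genes and 0 members were called in any comparison, with Tal1 at -1.17 and Lmo2 at -2.01 in the Hdac2 lox/lox line (adjusted p = 0.071 each) and Cbfa2t3 at 1.42 (0.17) in the EtOH comparison. A block crossed in the Hdac1 lox/lox line, chosen after seeing the data, called 8574 genes and 5 members in the Hdac2 lox/lox line, 858 and 2 in the Hdac1 lox/lox line, 5852 and 4 for the difference, and 6377 and 4 in the EtOH comparison. Each group rests on 2 libraries, and the lowest count of a member in a library was 467.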
